A study of Mus musculus with 4 samples.

Results

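The binding of SOX3 was examined around 8 genes of hypothalamus and pituitary development, *Hesx1*, *Otx2*, *Lhx3*, *Lhx4*, *Pitx1*, *Six6*, *Rax* and *Tbx2*, out of 22367 protein-coding genes in the GENCODE vM1 annotation of mm9. The genes were listed because an altered dosage of SOX3 causes hypopituitarism, and every peak that overlapped a gene body or the 100 kb to either side of it was taken. The data came from neural progenitor (NP) cells, which were obtained by keeping the mouse embryonic stem cell line R1 as monolayers in serum-free N2B27 for 4 days. Chromatin immunoprecipitation with the anti-SOX3 antibody AF2569, made in goat, was done on 3 samples labelled as biological replicates (replicates 1, 2 and 3), and peaks were called by the authors in each replicate against an input sample without antibody. These cells are all from 1 line, were neither treated nor genetically changed according to the labels, and were not dissected from the hypothalamus or the pituitary. The files analysed here hold peaks and no measure of the regional identity of the cells or of the expression of the 8 genes, so the results concern binding near these genes and not their activity.

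SOX3 is an X-linked transcription factor of the SOXB1 group, whose HMG box contacts and bends short A and T rich stretches of DNA, and POU proteins are among its known partners. In the embryo it is made in progenitors along the neural tube, including the ventral diencephalon that forms the hypothalamus and the infundibulum. The infundibulum lies against Rathke's pouch, the ectoderm that forms the anterior pituitary, and the signals it sends are needed for the pouch to grow. Of the 8 genes, *Otx2*, *Hesx1*, *Six6* and *Rax* encode homeodomain factors of the anterior neural plate, eye field or hypothalamus, *Tbx2* encodes a T-box repressor made in the ventral diencephalon, and *Lhx3*, *Lhx4* and *Pitx1* encode homeodomain factors of Rathke's pouch.

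The lists held 18816 peaks in replicate 1, 8096 in replicate 2 and 40543 in replicate 3. The score of a peak is 10 times the negative log10 of its MACS p-value, with a lowest score of 50 in each list. Read depth is not in the lists and is unknown, so scores were read within a list, by rank (1 is the highest score) and by percentile (the share of peaks in the list with a lower score). Peaks of different replicates that shared at least 1 bp were merged into regions, and a region with a peak in every replicate is called a common region. Replicates 2 and 3 were alike in a way that replicate 1 was not: among overlapping pairs of peaks, 34.5% began at the same base, compared with 0.922% for replicates 1 and 2 and 1.63% for replicates 1 and 3. The labels call the 3 samples biological replicates, but whether replicates 2 and 3 share reads cannot be told from the peak lists, so a peak in both may be less than 2 separate observations. Around the 8 genes, peaks of replicates 2 and 3 began at the same base in 4 of 11 common regions and no other pair of replicates did so in any. Requiring a peak in the other replicates only, the number of common regions around the 8 genes was 13 without replicate 1, 12 without replicate 2 and 11 without replicate 3.

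SOX3 common regions were present around 5 of the 8 genes. *Hesx1* had 4, *Otx2* had 3, *Six6* had 2, and *Lhx3* and *Rax* had 1 each, whereas *Lhx4*, *Pitx1* and *Tbx2* had none. These 5 genes are 62.5% of the 8, and of all protein-coding genes 42.2% had a common region in the same window. With 50 kb to each side the order turned: 2 of the 8 genes had a common region, a lower share than the 28.8% of all protein-coding genes. At least 2 common regions were found for 15.7% of all genes, at least 3 for 6.94% and at least 4 for 3.17%. No comparison of the list with other genes was tested. In all, 49 regions lay in the 8 windows, of which 11 were common (22.4%), compared with 10.5% of the 51271 regions of the genome. A region of any kind was present around each of the 8 genes, as for 97.2% of all genes. Peaks of replicate 1 and of replicate 3 were found around each of the 8 genes (81.7 and 94.7% of all genes), and peaks of replicate 2 around 5 of them (54.2% of all genes).

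**Figure D1:**
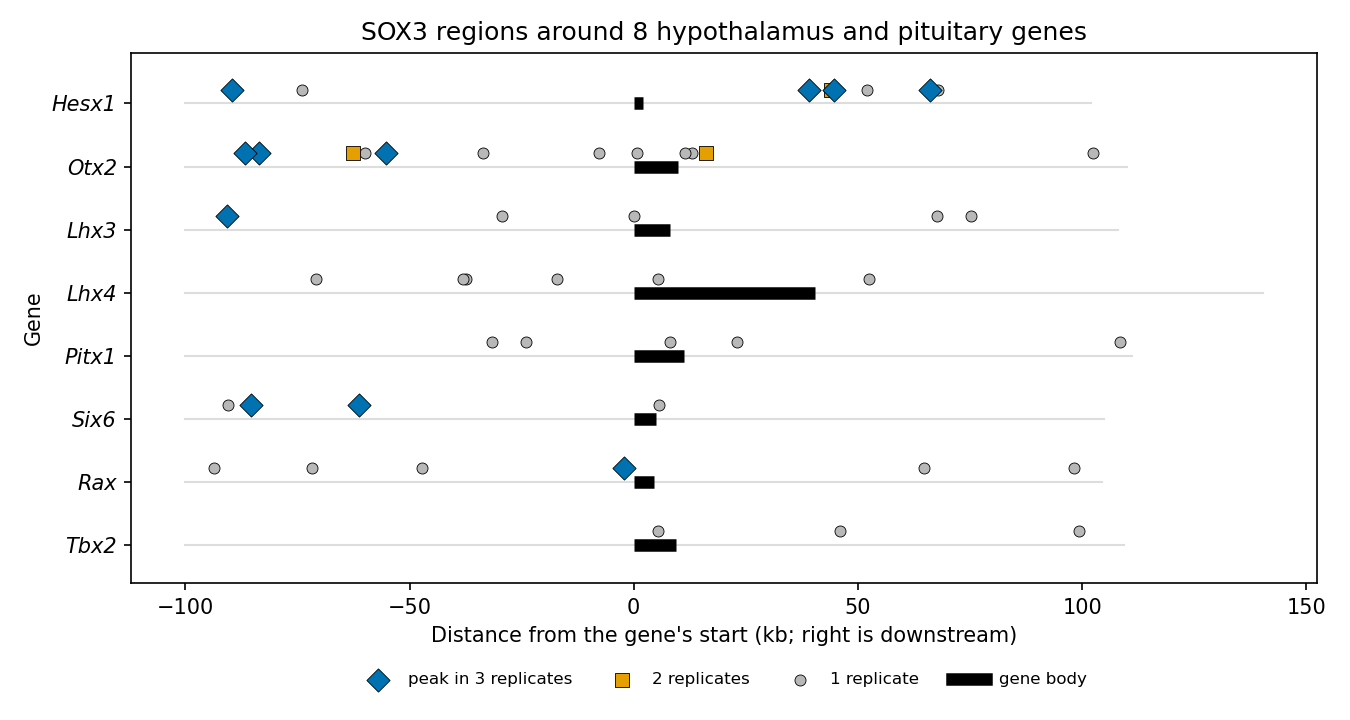
Regions bound by SOX3 around the 8 genes, with the distance of the middle of each region from the start of the gene on the horizontal axis (kb) and 1 row per gene; black bars are gene bodies, grey lines the windows searched, blue diamonds regions with a peak in 3 replicates, orange squares in 2 and grey circles in 1. The 11 common regions lie outside the gene bodies, and *Lhx4*, *Pitx1* and *Tbx2* have grey circles alone.

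None of the 11 common regions lay inside the gene that placed it in the list. Their distance to the start of that gene ranged from 2.23 to 90.7 kb with a median of 66.1 kb, and 8 of the 11 were over 50 kb away. Upstream regions numbered 8 and downstream regions 3, the latter all in the window of *Hesx1*. By the nearest start of a protein-coding gene, 4 of the 11 belonged to a gene of the list, 3 to *Otx2* and 1 to *Rax*, and the other 7 were closer to another gene. Under this stricter assignment 2 of the 8 genes had a common region, compared with 14.8% of all protein-coding genes. By location, 7 common regions were intergenic, 2 intronic and 2 within 2000 bp of a start, and in the genome 51.1% of the 5358 common regions were intergenic, 28.4% intronic and 19.2% within 2000 bp of a start.

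**Figure D2:**
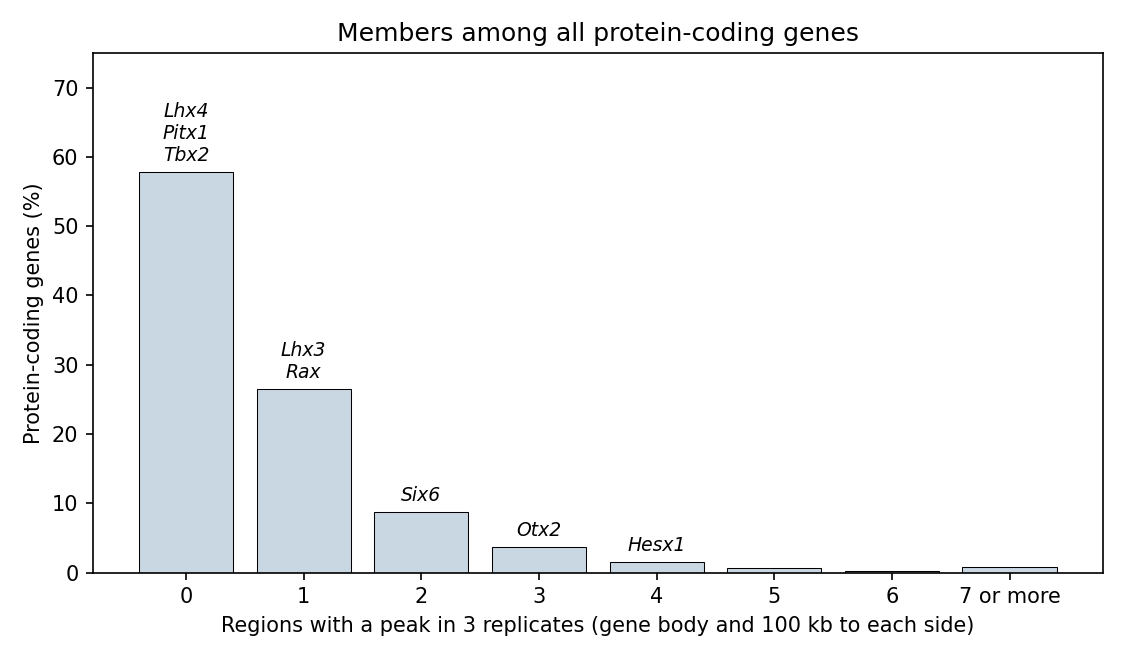
The share of all 22367 protein-coding genes (vertical axis, %) by the number of common regions in the gene body and 100 kb to each side (horizontal axis), with the 8 genes written above the bar they belong to. Genes without a common region are 57.8% of all genes and include *Lhx4*, *Pitx1* and *Tbx2*, and *Hesx1* stands in the bar of 4 regions, which holds 1.53% of genes.

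*Rax*, which encodes a homeodomain factor needed for the eye field and the hypothalamus, had the closest common region. The gene (ENSMUSG00000024518) lies on the minus strand at chr18:66094293-66098743, and the region at chr18:66100727-66101225 was intergenic, with its middle 2233 bp upstream of the start. The scores were 347 in replicate 1 (rank 1250, 93.4th percentile), 266 in replicate 2 (rank 746, 90.8th percentile) and 455 in replicate 3 (rank 843, 97.9th percentile). The region thus ranked high in each list, and its lowest percentile exceeded that of 86.8% of all common regions. It held 2 SOX words and no POU octamer (defined with the sequences of *Otx2*), and none of its 50-base sequences occurred elsewhere in the genome. The other 5 regions of the *Rax* window were seen in 1 replicate each and lay between 47.3 and 98.1 kb from the start. Of these, 4 were in replicate 3 with scores from 51.4 to 61.0, and 1 was in replicate 1, in an intron of *Lman1*, with a score of 68.7. That region, at chr18:66145896-66146218, was repeated in the genome along 69.7% of its 50-base sequences.

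*Otx2*, which encodes a homeodomain factor required for the forebrain and midbrain and later for the hypothalamus and the pituitary, had the most regions of the 8 genes. The gene (ENSMUSG00000021848) lies on the minus strand at chr14:49277354-49287319 with 7 annotated transcript starts, and distances are given from the outermost. Its window held 12 regions, and *Otx2* was the protein-coding gene with the nearest start to each of them. The 3 common regions were all upstream and intergenic, at 55.3, 83.6 and 86.7 kb, the latter pair 3.03 kb apart. At least 3 common regions with the gene as nearest start were found for 1.06% of protein-coding genes.

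The region of the 3 at *Otx2* with the most even scores, at chr14:49342385-49342784, scored 182 in replicate 1 (82.8th percentile), 179 in replicate 2 (83.1st percentile) and 313 in replicate 3 (96.5th percentile). It held neither a SOX word nor a POU octamer, and was the single common region of the 11 without a SOX word. The region at chr14:49370781-49371143, 83.6 kb upstream, scored 52.3 in replicate 1, close to the lowest score possible (5.96th percentile), 112 in replicate 2 (66.7th percentile) and 223 in replicate 3 (94.4th percentile). By its lowest percentile it exceeded 3.94% of all common regions, so its status as a common region rested on a weak peak of replicate 1. The region at chr14:49373825-49374165 was weakest in replicate 2, with scores of 174 (81.8th percentile), 67.5 (36.5th percentile) and 103 (82.1st percentile) in replicates 1, 2 and 3. When peaks were required to have a score of 100 or more, *Otx2* kept the region at 55.3 kb of the 3. With a reciprocal overlap of 50%, the region at 83.6 kb was not counted as common.

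The SOX core was searched on both strands in a form that starts with A (AACAAA or AACAAT) and a form that starts with G (GACAAA or GACAAT), together with the POU octamer in the forms ATGCAAAT and ATGCTAAT. For *Otx2*, *Hesx1*, *Six6* and *Lhx3*, the reference sequence of the common region whose lowest percentile in the 3 lists was the highest at that locus is shown, read on the plus strand of mm9, with these words in capitals and up to 300 bp around the middle of the region. For *Otx2*, a further stretch of the region 83.6 kb upstream is shown because it held 3 SOX words and an octamer, and was chosen after the words were found. Read from the 5′ end, it has an octamer, then a pair of GACAAA words on the minus strand separated by 2 bases, and then an AACAAA word on the minus strand.
*Otx2*, chr14:49342435-49342734 (55.3 kb upstream, 300 bp): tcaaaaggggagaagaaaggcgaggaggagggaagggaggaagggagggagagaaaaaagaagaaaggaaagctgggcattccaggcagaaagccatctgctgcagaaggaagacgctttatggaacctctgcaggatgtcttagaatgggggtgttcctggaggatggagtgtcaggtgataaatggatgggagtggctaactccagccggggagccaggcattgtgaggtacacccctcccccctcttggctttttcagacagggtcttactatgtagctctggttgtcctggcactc
*Otx2*, chr14:49370781-49370996 (83.6 kb upstream, 216 bp): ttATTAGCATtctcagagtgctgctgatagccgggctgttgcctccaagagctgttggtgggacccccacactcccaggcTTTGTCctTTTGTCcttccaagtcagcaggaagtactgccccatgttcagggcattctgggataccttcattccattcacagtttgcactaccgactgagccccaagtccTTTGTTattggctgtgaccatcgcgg

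Among the other 9 regions at *Otx2*, those in more than 1 replicate were at chr14:49271140-49271411, 16.0 kb downstream of the start, and at chr14:49349718-49350043, 62.6 kb upstream. Both had peaks in replicates 2 and 3 and none in replicate 1, so that without replicate 1 *Otx2* had 5 common regions. The upstream region scored 153 in replicate 2 and 313 in replicate 3, and its score in replicate 3 was the 23rd highest of the 2353 regions found in replicates 2 and 3 alone. It held a POU octamer and no SOX word. In the other direction, the region at chr14:49320648-49321084, 33.5 kb upstream, had a score of 169 in replicate 1 and no peak in the other replicates, and held 4 SOX words. The remaining 6 regions at *Otx2* were each in 1 replicate. The peak closest to a start of *Otx2*, at chr14:49286479-49286637, was found in replicate 1 with a score of 53.3, near the lowest possible. The region at chr14:49347170-49347421 in replicate 1 was repeated in the genome along 74.9% of its 50-base sequences.

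*Hesx1*, which encodes a homeodomain repressor of the anterior neural plate and Rathke's pouch, had the most common regions, but none had *Hesx1* as the nearest gene. Without replicate 1, and also with 200 kb to each side, *Otx2* had more, with 5 compared with 4 for *Hesx1*. *Hesx1* (ENSMUSG00000040726) lies on the plus strand at chr14:27813548-27815515. Of its 4 common regions, 3 lay downstream at *Il17rd* (ENSMUSG00000040717, chr14:27852187-27920472), which encodes a membrane antagonist of FGF signalling, and 1 lay 89.6 kb upstream in an intron of *Asb14*. The closest region of any kind had its middle 39.1 kb from the *Hesx1* start.

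The region at chr14:27857826-27858704, in an intron of *Il17rd* and 44.7 kb downstream of the *Hesx1* start, was the strongest of the 49. It scored 1106 in replicate 1 (rank 134), 700.2 in replicate 2 (rank 104) and 1181 in replicate 3 (rank 138), at or above the 98.7th percentile of each list. It was also the widest of the 11, with 879 bp, and held 3 SOX words. The next strongest at this locus, chr14:27879277-27879977, lay 956 bp from an internal start of *Il17rd*, with scores of 719, 280.4 and 348 in replicates 1, 2 and 3 (98.3rd, 91.6th and 97.0th percentiles). It held 2 GACAAA words and a POU octamer. The region at chr14:27852316-27852970, 456 bp inside the first start of *Il17rd*, scored 299 in replicate 1, 106 in replicate 2 and 169 in replicate 3. It was not counted as common with a reciprocal overlap of 50%. Its GC content of 67.3% was the highest of the common regions around the 8 genes, where the median was 51.2%, compared with 48.9% over all common regions.

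The upstream region at chr14:27723787-27724117 scored 158, 99.7 and 219 in replicates 1, 2 and 3, with 3 SOX words and an octamer, and 22.0% of its 50-base sequences occurred elsewhere in the genome. It was lost when scores of 100 or more were required. A region in replicates 1 and 3 without replicate 2, at chr14:27857469-27857809, was adjacent to the strongest region and scored 63.1 and 159. The other 3 regions of the *Hesx1* window were in replicate 3 alone, with scores from 60.1 to 79.4. Of the strongest region, the middle 300 bp are shown with a shorter stretch near its 5′ end that was chosen after the words were found, because an AACAAT word and a GACAAT word face each other there on opposite strands, 3 bases apart.
*Hesx1* window, chr14:27858116-27858415 (intron of *Il17rd*, 300 bp): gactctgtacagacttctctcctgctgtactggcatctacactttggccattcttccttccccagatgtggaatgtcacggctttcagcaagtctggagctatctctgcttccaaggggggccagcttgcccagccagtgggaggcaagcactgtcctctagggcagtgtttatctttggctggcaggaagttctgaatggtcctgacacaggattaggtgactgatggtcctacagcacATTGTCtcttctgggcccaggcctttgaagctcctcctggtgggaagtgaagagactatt
*Hesx1* window, chr14:27857921-27857975 (intron of *Il17rd*, 55 bp): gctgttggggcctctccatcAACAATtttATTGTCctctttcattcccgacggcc

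*Six6*, which encodes a homeodomain factor of the retina, hypothalamus and pituitary, had 2 common regions, both far upstream and intergenic. The gene (ENSMUSG00000021099) lies on the plus strand at chr12:74040932-74045886, and it overlaps the 5′ end of *4930447C04Rik* on the opposite strand, which had the nearest start for each region in the window. The region at chr12:73955302-73955677, 85.4 kb upstream, scored 114 in replicate 1 (68.2nd percentile), 146 in replicate 2 (77.2nd percentile) and 295 in replicate 3 (96.2nd percentile), and held 2 GACAAA words. The region at chr12:73979482-73979724, 61.3 kb upstream, scored 62.05, 97.2 and 234 in replicates 1, 2 and 3, with the 33.7th percentile in replicate 1, and held 1 SOX word. Of its 50-base sequences 44.8% occurred elsewhere in the genome, the largest share among the 11 common regions, and it was lost when only scores of 100 or more or equal numbers of peaks were used.

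Closer to *Six6*, a region at chr12:74046266-74046704, just past the end of the gene and 5.55 kb from its start, was found in replicate 1 alone. Its score of 267 was the 56th highest of the 10617 regions seen in replicate 1 alone, at the 99.5th percentile of them, and it held 3 SOX words of the GACAA form. Replicates 2 and 3 had no peak there at the threshold used. The remaining region of the window, in replicate 1, scored 50.3.
*Six6*, chr12:73955340-73955639 (85.4 kb upstream, 300 bp): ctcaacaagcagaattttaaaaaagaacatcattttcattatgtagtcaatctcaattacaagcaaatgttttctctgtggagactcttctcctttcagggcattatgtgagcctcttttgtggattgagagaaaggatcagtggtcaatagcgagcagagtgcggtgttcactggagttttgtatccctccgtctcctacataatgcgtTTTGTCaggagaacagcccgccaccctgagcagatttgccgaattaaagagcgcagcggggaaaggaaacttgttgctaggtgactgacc

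*Lhx3* and *Lhx4* encode related LIM-homeodomain factors needed for Rathke's pouch, and the loci had few or no common regions. *Lhx3* (ENSMUSG00000026934) lies on the minus strand at chr2:26055732-26063769. Its common region, at chr2:26154271-26154745, was 90.7 kb upstream and 4431 bp from the nearest start, that of *4932418E24Rik*. The scores were 345 in replicate 1 (93.3rd percentile), 105 in replicate 2 (63.4th percentile) and 173 in replicate 3 (92.0th percentile), and the region held an AACAAT and a GACAAA word. It was not counted as common when peaks had to overlap reciprocally by 50%, since the peak of replicate 1 was 475 bp wide and the peak of replicate 2 spanned 26154433 to 26154639. At the *Lhx3* start itself, a peak at chr2:26063706-26063839 had its middle 3.5 bp from the start, in replicate 1 alone and with a score of 59.8 (rank 13405, 28.7th percentile). The other 3 regions were also in replicate 1 alone, with scores from 53.3 to 84.7.
*Lhx3*, chr2:26154359-26154658 (90.7 kb upstream, 300 bp): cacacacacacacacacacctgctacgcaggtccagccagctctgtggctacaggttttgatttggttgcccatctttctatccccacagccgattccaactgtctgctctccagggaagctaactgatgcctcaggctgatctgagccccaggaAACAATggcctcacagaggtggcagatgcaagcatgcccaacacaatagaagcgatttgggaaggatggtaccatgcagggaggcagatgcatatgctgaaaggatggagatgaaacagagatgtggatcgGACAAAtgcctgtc

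*Lhx4* (ENSMUSG00000026468), on the minus strand at chr1:157548827-157589157, had 6 regions, each in 1 replicate. The highest score was 151 in replicate 1, at chr1:157606200-157606475 and 17.2 kb upstream, which was the 530th highest of the 10617 regions of replicate 1 alone, and this region held no SOX word. Within the gene, a peak of replicate 1 at chr1:157583561-157583755 lay in an intron and scored 53.5. The other 4 regions had scores from 53.5 to 73.8, and 3 of them lay at or in *Qsox1*.

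*Pitx1*, which encodes a homeodomain factor of the oral ectoderm and Rathke's pouch, and *Tbx2* also had regions of 1 replicate alone. *Pitx1* (ENSMUSG00000021506), on the minus strand at chr13:55926415-55937553, had 2 regions in replicate 1, with scores of 56.8 and 59.8, and 3 in replicate 3, with scores from 55.0 to 69.8. The highest of these, at chr13:55969002-55969195, was 31.5 kb upstream and at the 60.2nd percentile of its list. *Tbx2* (ENSMUSG00000000093), on the plus strand at chr11:85646053-85655450, had the fewest regions, with 3. The peak inside the gene, at chr11:85651365-85651524, was in an exon, in replicate 1 and with a score of 53.0, and the 2 regions of replicate 3 lay 46.0 and 99.3 kb downstream with scores of 53.3 and 66.7, both nearer to *Tbx4*. None of the 8 regions at *Pitx1* and *Tbx2* had a score above 69.8, and no region at these loci or at *Lhx4* had a peak of replicate 2.

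Percentiles of the 11 common regions are given within each list, and lists of different length place common regions at different percentiles. In replicate 1 the percentiles had a median of 82.8 and a range of 5.96 to 99.3. The median was 66.7 in replicate 2 (range 36.5 to 98.7), and in replicate 3 it was 94.8 (range 82.1 to 99.7). Over all common regions of the genome the medians were 82.6, 65.0 and 92.8, so the medians around the 8 genes lay near those of all common regions. The single regions were spread widely: by lowest percentile they exceeded from 3.94 to 98.1% of all common regions. By lowest percentile, 7 of the 11 were above the median of all common regions. The regions at *Il17rd* (44.7 and 66.1 kb from the *Hesx1* start) and at *Rax* stood above the 90th percentile in each list. Regions seen in 1 replicate had low scores in most cases. The 16 of replicate 1 had a median score of 58.4, compared with 62.8 for the 10617 such regions of the genome, and the 19 of replicate 3 had a median of 61.0 and none above 79.4, compared with a median of 59.2 for 30116.

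**Figure D3:**
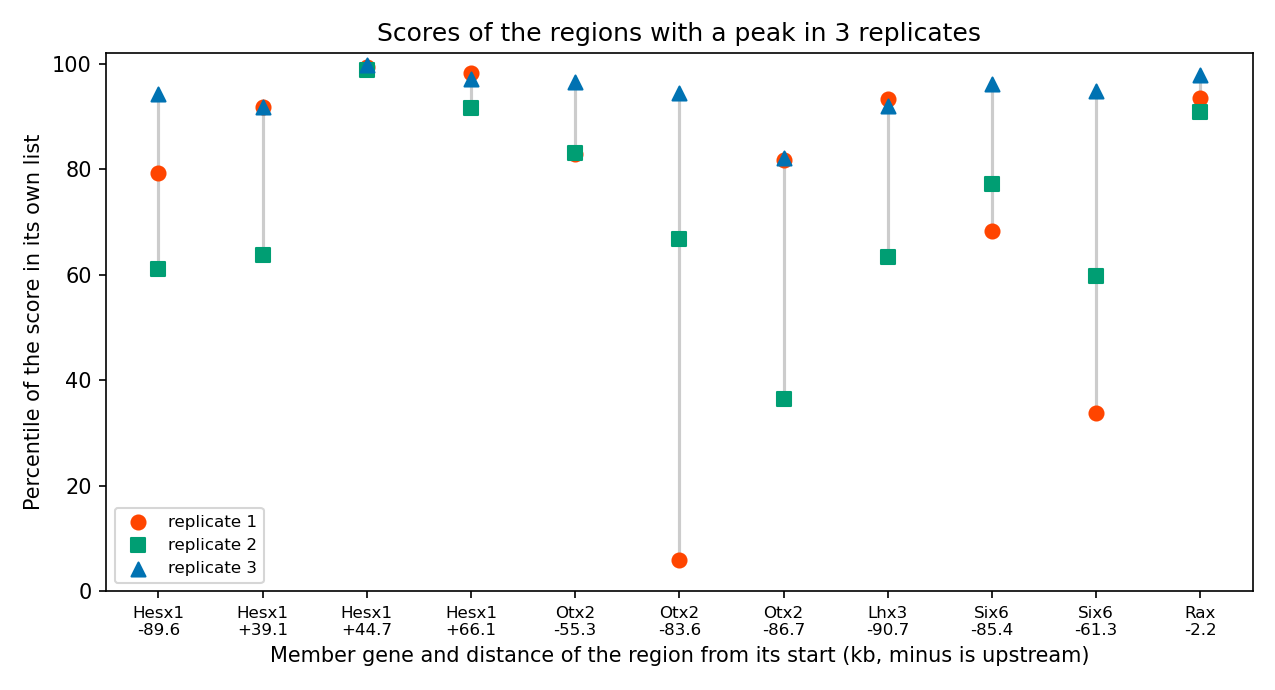
The percentile of the score within its own list (vertical axis) for the 11 common regions, labelled by gene and distance from its start (kb), in replicate 1 (circles), replicate 2 (squares) and replicate 3 (triangles); grey lines join the lowest and the highest. Replicate 3 lies between 82.1 and 99.7 throughout, and the region 83.6 kb upstream of *Otx2* spans from 5.96 to 94.4.

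SOX words of the forms searched were present in 10 of the 11 common regions, which is 90.9% with a 95% Wilson interval of 62.3 to 98.4%. Windows as wide as each region, placed 2000 bp upstream and downstream of it, held a SOX word in 14 of 22 cases, which is 63.6% (43.0 to 80.3%). Over all common regions the share was 78.2% (77.1 to 79.3%), and 68.3% in their flanks. In windows of 200 bp around the middle, which make wide and narrow regions comparable, 10 of the 11 common regions held a SOX word, compared with 18 of the 35 regions seen in 1 replicate, or 51.4% (35.6 to 67.0%), 65.5% of all common regions (64.2 to 66.7%) and 44.3% of their flanks. The interval of the 11 regions (62.3 to 98.4%) overlapped those of the regions seen in 1 replicate and of all common regions. It lay above that of the 200 bp flanks of all common regions (43.4 to 45.3%). Across the whole width, the 11 regions had the same interval, and it overlapped that of their own flanks (43.0 to 80.3%). These differences were not tested. The POU octamer was present in 3 of the 11 common regions across their whole width, 2 in the *Hesx1* window and 1 at *Otx2*, and in 11.6% of all common regions. In the region 66.1 kb from the *Hesx1* start the octamer lay within the peak of replicate 1 alone. At *Otx2* the octamer lay within the peaks of replicates 2 and 3 and outside that of replicate 1. In windows of 200 bp it was present in 1 of the 11 (9.09%) and in 8.92% of all common regions. It was in none of the 35 regions seen in 1 replicate. A match shows that these letters are present and not that SOX3 or a POU protein sits on them, and intervals cover counting error only.

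**Figure D4:**
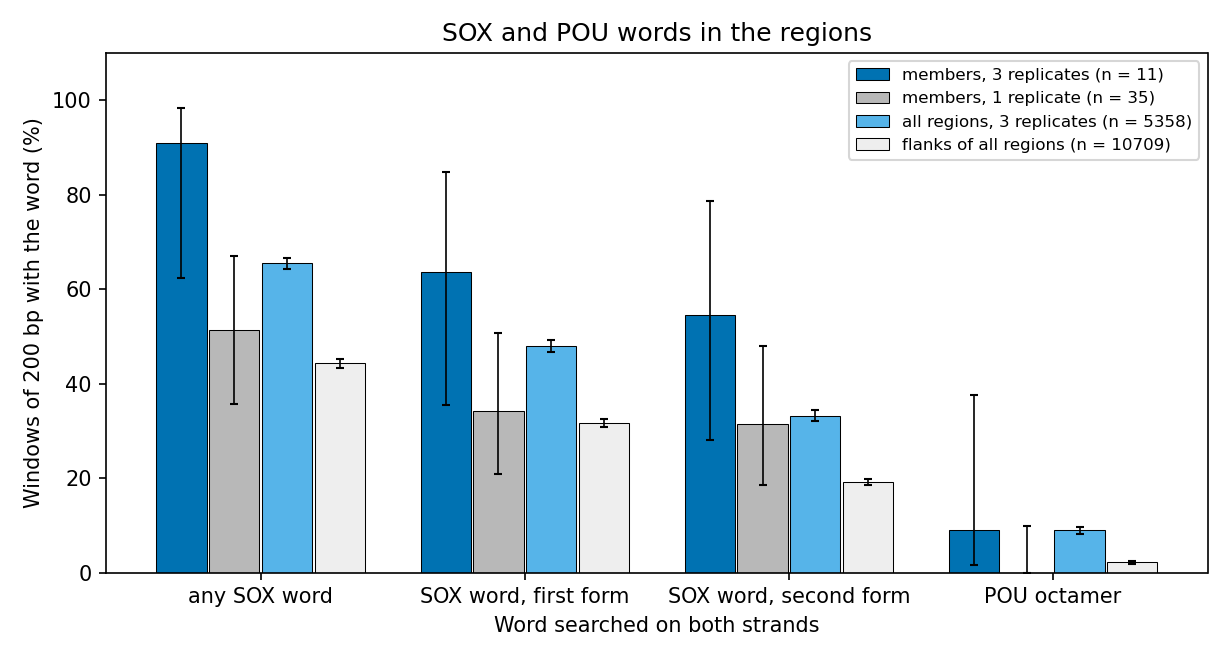
The share of 200 bp windows that hold a word on either strand (vertical axis, %), with 95% Wilson intervals as error bars, for any SOX word, its form that starts with A (first form), its form that starts with G (second form) and the POU octamer (horizontal axis). For any SOX word the 11 common regions around the 8 genes stand at 90.9% and the regions of 1 replicate at 51.4%, with error bars that overlap.

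Beyond the window, 7 further common regions lay between 100 and 200 kb from the gene bodies. *Otx2* had 2 of them, 154 and 192 kb downstream of its start and in *6720456H20Rik*, and *Lhx3* had 2, 129 kb upstream in an intron of *Gpsm1* and 153 kb downstream in an exon of *Nacc2*. *Six6*, *Rax* and *Tbx2* had 1 each. That of *Six6* was 146 kb downstream and nearest to *Six4*, and that of *Rax* was 118 kb downstream and nearest to *Sec11c*. The region of *Tbx2*, 118 kb upstream at chr11:85528023-85528326, lay in an intron of *Bcas3* and scored 72.8, 122 and 198 in replicates 1, 2 and 3. *Lhx4* and *Pitx1* had no common region within 200 kb.

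Other genes of hypothalamus and pituitary development were taken from a list of 31 drawn from textbook knowledge, and 15 of them (48.4%) had at least 1 common region in the same window, compared with 42.2% of all protein-coding genes. Among 6 signals made by or around the infundibulum, 2 had a common region, *Fgf8* and *Fgf10*, with 1 each, 40.6 kb from the closest start of *Fgf8* but nearer to the start of another gene, and 44.5 kb from the closest start of *Fgf10*, its nearest gene, while *Bmp4*, *Bmp2*, *Shh* and *Wnt5a* had none. *Fgf10* is the FGF ligand that maintains growth of Rathke's pouch. Of 11 pituitary factors, 6 had a common region. The most were found for *Eya1*, which encodes a phosphatase and transcriptional coactivator, with 4, and for *Gli2*, which encodes an effector of SHH signalling, with 3, each the nearest gene to its regions. *Pou1f1*, which acts late in the pituitary lineages, had none.

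Of 12 hypothalamus factors, 6 had a common region. *Nkx2-1*, a homeodomain factor of the ventral hypothalamus, had the most with 3, and was the nearest gene to 2 of them. *Tcf7l2*, an effector of WNT signalling, came next with 2, the closest 120.5 bp from a start. The SOXB1 gene *Sox2* (chr3:34548927-34551383) had 4 common regions, all with *Sox2* as nearest gene and the closest 3.88 kb from its start. *Sox3* had none in its window. The paper assigns an intergenic SOX3 site to *Sox3*, and that site lies outside the 100 kb searched here. A window is as much wider as its gene is longer, so the counts of long genes such as *Eya1* and *Gli2* come from wider windows than those of the 8 genes.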

How the data were processed

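SOX3 ChIP-seq was measured in 3 biological replicates of NP cells, and the input sample was not analysed here. As deposited, the authors had aligned 50 bp single end reads to mm9 with Bowtie (version 1.0.0 in the submitters' processing notes) and called peaks per replicate with MACS against the input at a p-value threshold of 1e-05. The deposited score (the negative log10 of the p-value, multiplied by 10) is not normalized between replicates. It depends on a depth that the lists do not give. Replicates were grouped by the labels, and no test between groups was possible with 1 group.

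Genes came from GENCODE vM1 and sequences from NCBIM37, the same assembly as mm9, and no peak ran past a chromosome end. The 8 genes, the list of 31 and the words were chosen with earlier results of these data known. Each gene body was extended by 100 kb, and peaks sharing 1 bp were merged. For repeats, 50-base sequences were counted on both strands of the whole reference. All genes were named, every common region was described, and from the list of 31 (1 further gene is not reported here) the 2 genes with the most common regions in each group were named, with others listed after their values were seen. Alternatives were a score of 100 or more, equal numbers of peaks, a reciprocal overlap of 50%, windows of 50 and 200 kb, nearest starts, each replicate left out and words in 200 bp. The procedure was tested on simulated data. The software was Python 3.11.15 (scipy 1.17.1, numpy 2.4.6, matplotlib 3.10.9, numba 0.67.0).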

Additional observations from a re-analysis of the deposited data

How the results depend on the processing

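The 11 common regions around the 8 genes became 7 with scores of 100 or more, 9 with equal numbers of peaks, 8 with a reciprocal overlap of 50%, 3 with 50 kb to each side, 18 with 200 kb and 4 when the gene had to have the nearest start, and ranged from 11 to 13 when a replicate was left out. The 5 genes with a common region became 2 with 50 kb (*Hesx1* and *Rax*) and 2 by nearest start (*Otx2* and *Rax*). They were 4 with a reciprocal overlap of 50%, where *Lhx3* had none, and 5 with equal numbers of peaks and with scores of 100 or more. The share of all protein-coding genes with a common region, 42.2%, was 23.5% with scores of 100 or more, 33.2% with equal numbers of peaks, 38.8% with a reciprocal overlap of 50%, 28.8% with 50 kb, 60.6% with 200 kb and 14.8% by nearest start, and ranged from 42.9 to 55.0% when a replicate was left out. The share of common regions around the 8 genes with a SOX word was 90.9% in both settings. With 3 lists of unequal length and unknown depth, a peak that is missing from a list may lie just under the threshold. No paired analysis was possible because the samples form 1 group.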
